A study of Mus musculus with 5 samples.

Results

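The genes described here are 49 DNA replication and G1/S genes, listed by symbol and all found among the 30478 genes of the deposited table. Macrophages are phagocytes, and those studied here were sorted from the peritoneal cavity of C57BL/6 mice for sequencing of their mRNA. The 2 libraries called mutant come from 8-week females that are del/del for Samhd1 and ki/ki for cGAS-GFP. They are compared with 3 wild-type (wt) libraries, of which wt 1 is from a 13-week male and the others are from females of 13 weeks (wt 2) and 9 weeks (wt 3). SAMHD1 is an enzyme that breaks down dNTPs, the building blocks of DNA, and cGAS is a sensor of DNA in the cytosol. Both alleles come together in the mutant libraries, so a difference cannot be assigned to the one or the other, and genotype and age cannot be told apart. Separate animals are not stated in the labels, and p-values therefore measure only how these libraries spread.

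DNA replication starts when the origin recognition complex, with Cdc6 and Cdt1, loads the ring-shaped MCM helicase on DNA before S phase. Mcm10, Cdc45 and the GINS complex switch the helicase on, and polymerases, held by the PCNA clamp, then copy both strands. Cyclin E and the E2F transcription factors drive the step from G1 into S phase, in which most of these genes are transcribed. Resident macrophages of the mouse peritoneum are known to divide locally, but Gata6 and Timd4, which define the large ones, had 0 reads here.

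Each library held 27282354 to 33119434 recovered reads, and values per gene are the authors' normalized counts. Samhd1 had 1279 and 1431 in mutants 1 and 2, while wt 1 to 3 had 17824, 16777 and 18274 (log2 fold change -3.70, limma adjusted p = 1.44e-05). Cgas had 184 and 85.1 in the same mutants, while wt 1 to 3 had 974, 1211 and 968 (log2 -3.04, limma adjusted p = 0.00391). Macrophage markers were present (8 of 8 genes, summed to 16377 CPM in mutant 1 and 25640 CPM in mutant 2, against 9759 to 11493 CPM in wt, where CPM is reads scaled to the library's depth). Lyz2 made up 55.5% of this sum over the 5 libraries. Among 6 markers of resident large peritoneal macrophages, the defining genes Gata6 and Timd4 had 0 reads in all 5 libraries, and the list summed to 236 and 345 CPM in the mutants, against 272 to 497 CPM in the wt libraries. Cd5l made up 97.0% of the latter sum over the 5 libraries. Of the 3 resident markers tested, limma called Icam2 lower (log2 -0.99, limma adjusted p = 0.0184) and 0 higher.

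Replication genes read lower in mutant macrophages, in both libraries and most in mutant 2. All 49 had a negative log2 fold change (mutant over wt), from -1.78 to -0.17, and their median was -0.98, against 0.00033 over all 14977 genes tested. Limma called 6 of the 49 lower at an adjusted p under 0.05, where 4.89% of all genes tested were called lower, and it called 0 higher, against 3.71% (8.6% of all genes in either direction). At an unadjusted p under 0.05 the counts were 44 lower, against 17.7% of all genes, and 0 higher, against 13.9%. EdgeR, DESeq2 and limma-voom also called 0 higher, against 4.29%, 8.66% and 4.03% of all genes. The 6 were Pcna, Cdt1, Prim2, Rfc1, E2f2 and Tipin. All 49 reached a normalized count of 10 in all 5 libraries, so none was tested only because 1 group was high. In bulk samples, fewer cells in S phase and less of these RNAs per cell cannot be told apart.

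Mutant 2 was lower than mutant 1 in 49 of 49 genes, a direction seen in 49.4% of all genes tested. Relative to the wt mean, the median was -0.47 for mutant 1 and -1.58 for mutant 2, that is 72.2% and 33.5% of wt. The wt libraries stood at -0.08, 0.14 and -0.07. Both mutants lay below all 3 wt libraries in 45 genes, against 26.9% of all genes tested. In the other 4 (Gins3, Rfc2, Rfc5 and Dscc1) mutant 1 lay inside the wt range, while mutant 2 lay below it in all 49. Over all genes tested, mutant 1 lay below the 3 wt libraries in 35.7% and mutant 2 in 40.2%. All 49 kept more than 50% of the wt mean in mutant 1, whereas 38 had less than 50% and 8 less than 25% of it in mutant 2. Summed over the 49, the reads came to 2641 CPM in mutant 1 and 1329 CPM in mutant 2, against 3579, 4091 and 3559 CPM in wt 1 to 3.

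**Figure D1:**
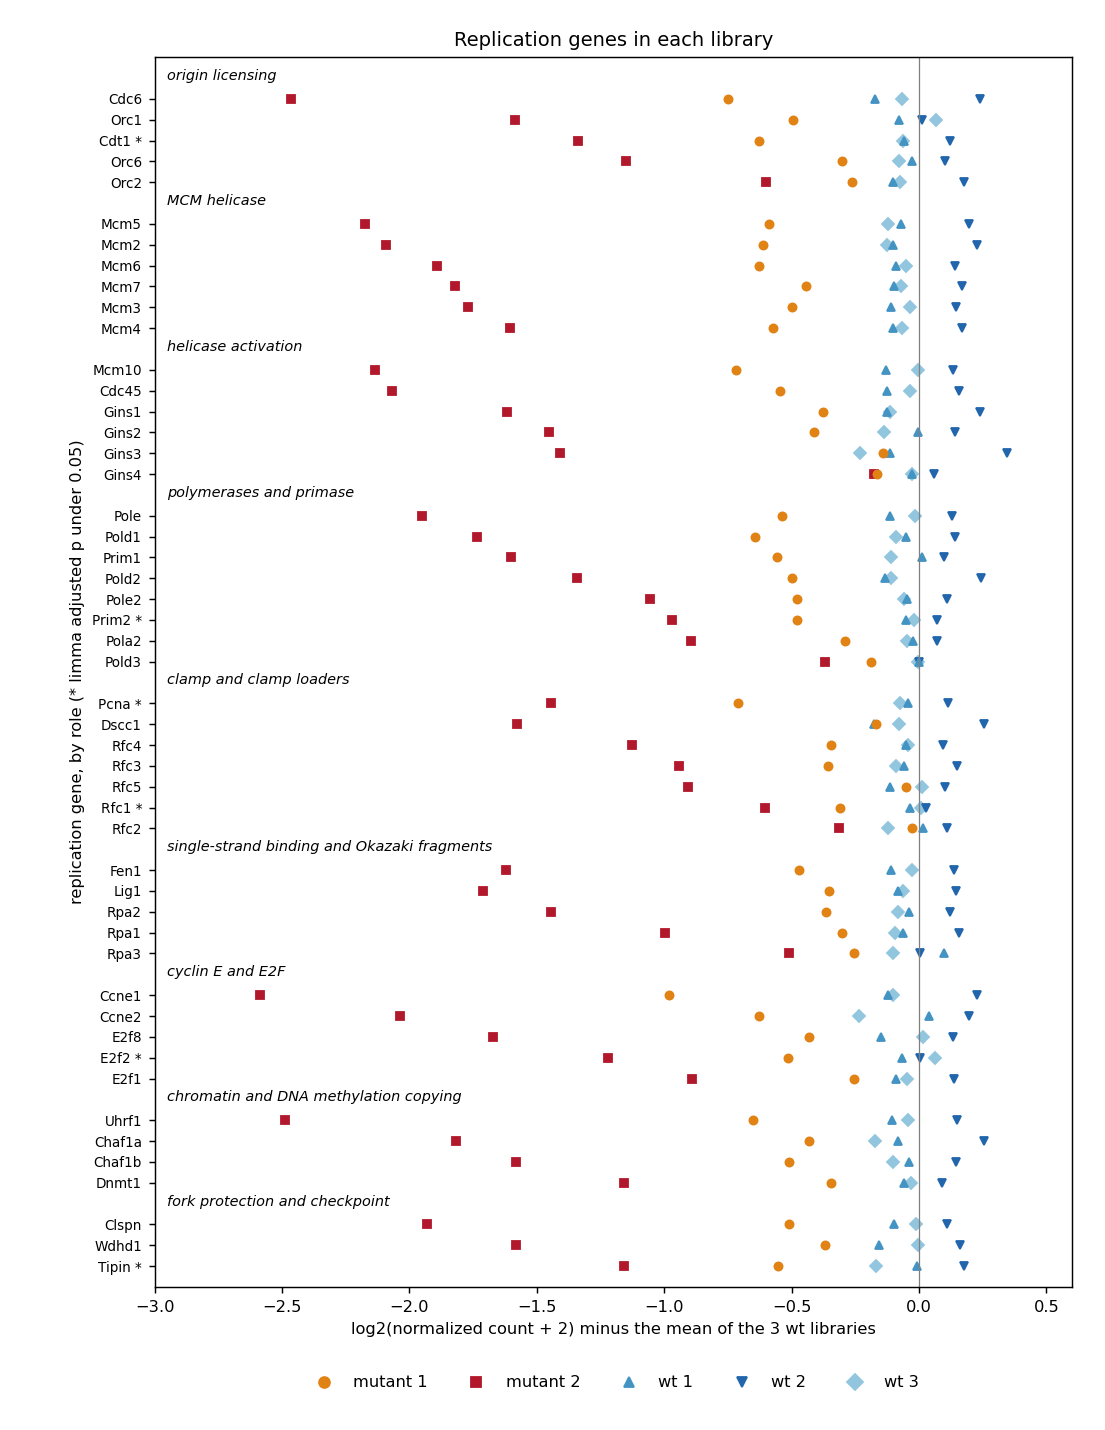
Each row is 1 replication gene, grouped by role, and the x axis is log2(normalized count + 2) minus the mean of the 3 wt libraries. Each symbol is 1 library, asterisks mark the 6 genes with a limma adjusted p under 0.05, and mutant 2 is the lowest library in all 49 rows.

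The count of 6 changed with any wt library left out. Without wt 1, wt 2 or wt 3, limma called 0 of the 49 in each case. Over all genes it then called 173 of 14761, 286 of 14795 and 177 of 14714 lower. At an unadjusted p, 39, 25 and 41 of the 49 were lower, for which no share of all genes is given. The 6 then had adjusted p of 0.119 to 0.170 and log2 fold changes of -1.11 to -0.44. Leaving out mutant 1 gave a median of -1.58, and leaving out mutant 2 gave -0.47. Each leaves 1 mutant library that is assumed to vary like the wt libraries. The 6 called genes were not those with the largest fold changes (median -0.86, against -1.03 in the other 43). They were genes in which the mutants lay closer together, with a median difference of -0.66 between mutant 2 and mutant 1, against -1.09 in the other 43. DESeq2 called 33 lower, against 10.1% of all genes it adjusted, edgeR 4 against 4.47%, and limma-voom 7 against 4.55%. In the authors' deposited table, 10 of the 49 had an adjusted p under 0.05 and were lower in the mutant. The same held for 1116 of the 14977 genes tested here. As a share of all 30478 genes of that table, many of them under the filter, the 1116 are 3.66%. Those 10 held all 6 above together with Mcm4, Pold1, Pold2 and Rfc3.

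**Figure D2:**
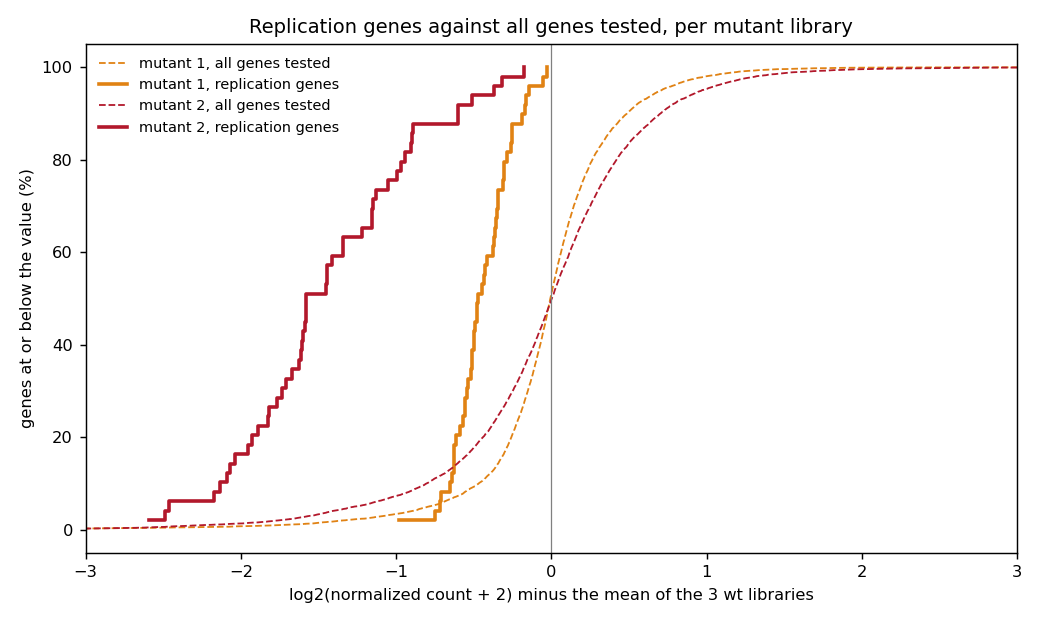
The x axis is the difference of each mutant library from the wt mean in log2(normalized count + 2), and the y axis is the share of genes at or below that value. Solid lines are the 49 replication genes and dashed lines all 14977 genes tested, and the solid lines have medians of -0.47 (mutant 1) and -1.58 (mutant 2).

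Windows around the start sites of these genes are shown because E2F factors are known to bind such promoters. The genes were listed for their role in replication and G1/S. A high share of E2F matches could thus be foreseen from the list and is not a result of these libraries. RefSeq windows on GRCm38.p6, from 250 bases before to 30 after the start, were found for 39 of the 49 genes (49 windows). Printed here, 5′ to 3′ on the strand of the gene, are the 4 genes of lowest adjusted p that have a window, and Mcm6, whose window held the most E2F matches and which was chosen after that was seen. The E2f2 window is the first of 2 by position. Capitals mark matches to the E2F motif (TTTCCCGC, TTTCGCGC, TTTGCCGC or TTTGGCGC) or to the NF-Y motif (CCAAT), on either strand.
Pcna (chr2:132253151-132253430, minus strand): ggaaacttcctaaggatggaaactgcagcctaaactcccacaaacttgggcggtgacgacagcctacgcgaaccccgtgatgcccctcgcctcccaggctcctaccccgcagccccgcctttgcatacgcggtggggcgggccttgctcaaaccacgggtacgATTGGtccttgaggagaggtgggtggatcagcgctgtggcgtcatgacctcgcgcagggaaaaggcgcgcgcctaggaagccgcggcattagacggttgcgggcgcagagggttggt
Cdt1 (chr8:122567765-122568044, plus strand): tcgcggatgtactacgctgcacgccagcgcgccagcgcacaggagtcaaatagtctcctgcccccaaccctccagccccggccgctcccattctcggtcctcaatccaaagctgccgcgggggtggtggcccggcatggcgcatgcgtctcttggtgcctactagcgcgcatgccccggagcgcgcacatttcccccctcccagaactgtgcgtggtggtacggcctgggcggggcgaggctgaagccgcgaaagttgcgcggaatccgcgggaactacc
Rfc1 (chr5:65335610-65335889, minus strand): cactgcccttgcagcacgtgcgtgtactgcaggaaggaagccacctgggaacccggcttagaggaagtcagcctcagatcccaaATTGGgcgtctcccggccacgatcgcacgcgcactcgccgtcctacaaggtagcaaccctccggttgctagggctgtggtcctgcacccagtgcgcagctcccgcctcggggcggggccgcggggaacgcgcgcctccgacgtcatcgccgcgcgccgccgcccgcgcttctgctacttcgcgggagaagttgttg
E2f2 (chr4:136172024-136172303, plus strand): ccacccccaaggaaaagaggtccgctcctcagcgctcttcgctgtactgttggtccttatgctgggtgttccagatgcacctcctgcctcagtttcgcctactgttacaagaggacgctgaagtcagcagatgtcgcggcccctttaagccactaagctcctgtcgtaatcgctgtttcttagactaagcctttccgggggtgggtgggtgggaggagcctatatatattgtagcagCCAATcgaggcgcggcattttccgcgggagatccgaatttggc
Mcm6 (chr1:128359676-128359955, minus strand): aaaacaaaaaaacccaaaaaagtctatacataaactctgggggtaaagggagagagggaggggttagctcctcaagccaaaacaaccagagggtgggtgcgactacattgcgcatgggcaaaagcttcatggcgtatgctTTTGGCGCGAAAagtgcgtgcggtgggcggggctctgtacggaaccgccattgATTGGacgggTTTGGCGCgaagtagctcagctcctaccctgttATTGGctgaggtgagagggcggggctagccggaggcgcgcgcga
In the Mcm6 window 3 E2F matches begin 110, 106 and 47 bases before the start, of which the first and second overlap as 1 run of capitals. The Pcna, Cdt1, Rfc1 and E2f2 windows held no E2F match, and Pcna, Rfc1 and E2f2 each held 1 NF-Y match. Of the 39 genes, 13 had an E2F match in at least 1 window (33.3%), against 4.43% of 9999 genes tested and 2.45% of all 27025 genes with a window. They were Mcm3, Mcm5, Mcm6, Mcm7, Orc1, Cdc6, Gins3, Pold3, Pole2, Rfc3, Dnmt1, Uhrf1 and Clspn. An NF-Y match was found in 61.2% of the windows of the replication genes, against 36.6% of those of genes tested and 36.1% of all windows. The CHR motif (TTTGAA, either strand), known from promoters of mitotic genes, was found in 16.3%, against 11.9% and 17.2%. The 13 genes with an E2F match had a median log2 fold change of -1.13 and included 0 of the called genes. The 26 without a match had a median of -0.98 and included 4, and the difference was not tested. Of all genes tested, 4.89% were called lower. The called genes Prim2 and Tipin had no window. A match says only that the letters are there, and no match only that these exact letters are absent from the window.

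**Figure D3:**
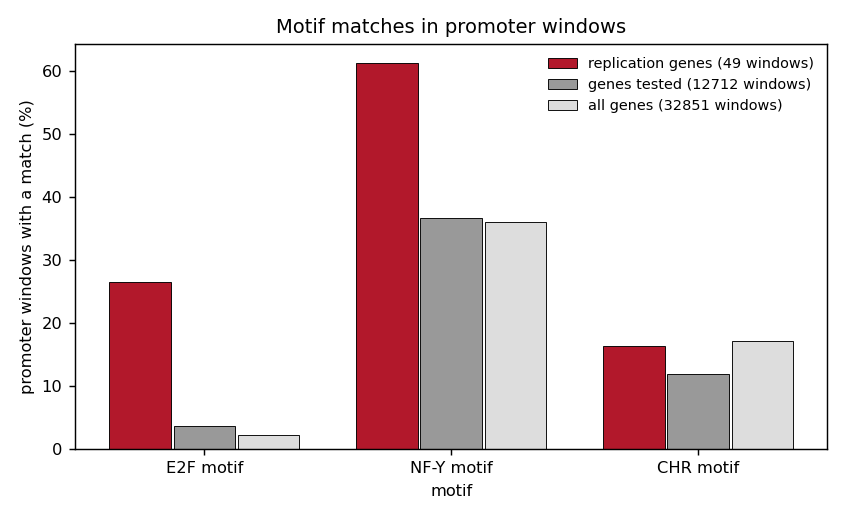
The bars give the share of promoter windows with at least 1 match to each motif on either strand, for the replication genes, the genes tested and all genes with a window. The E2F bar stands at 26.5% for the replication genes, against 3.67% for genes tested and 2.12% for all genes. The genes were listed by role, so these shares describe the list and not a change in the libraries.

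Among the genes that license origins, limma called Cdt1 lower and not the other 4, with 5 lower at an unadjusted p, 2 by DESeq2, 1 by edgeR and 1 by limma-voom. For such counts here and below, the shares of all genes called lower were 4.89% by limma and 17.7% at an unadjusted p. They were 10.1% by DESeq2, 4.47% by edgeR and 4.55% by limma-voom. Cdt1 (chromosome 8, 122568015 to 122573554, plus strand in GENCODE M21, GRCm38), which brings the MCM ring to the origin, had a normalized count of 1818 in mutant 1 and 1111 in mutant 2, while wt 1 to 3 had 2703, 3062 and 2692. The groups did not overlap, with a log2 fold change of -0.98 (SE 0.200, limma adjusted p = 0.0369). Values of the genes that follow are in the order mutant 1, mutant 2 and wt 1 to 3. Cdc6, the ATPase that acts with Cdt1, had 419.8 and 127 in the mutants, against 627, 835 and 676 in the wt libraries (log2 -1.61, SE 0.461, limma adjusted p = 0.0801). Mutant 1 stood at 58.9% of the wt mean and mutant 2 at 17.8%. The origin recognition subunits had log2 fold changes of -1.04 (Orc1), -0.43 (Orc2) and -0.73 (Orc6), with mutant 2 the lowest library in each.

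The 6 subunits of the MCM helicase had log2 fold changes within a narrow range, from -1.38 to -1.09, and limma called 0 of them. All 6 had an unadjusted p under 0.05, DESeq2 called 5, and edgeR and limma-voom 0. Mcm6, the highest of the 6 per kilobase in every library, had 4659 and 1939 in the mutants, against 6770.4, 7936 and 6949.9 in the wt libraries (log2 -1.26, SE 0.335, limma adjusted p = 0.0688). Mcm4 had 2153 and 1050.4, against 2985, 3598 and 3051 in wt (log2 -1.09, SE 0.282, limma adjusted p = 0.0651). Mutants and wt did not overlap for any subunit, and the median of the 6 stood at 66.9% of wt in mutant 1 and 27.6% in mutant 2. The other subunits had values of -1.35 (Mcm2), -1.13 (Mcm3), -1.38 (Mcm5) and -1.13 (Mcm7).

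Factors that activate the helicase varied more among themselves, from -1.43 to -0.17, and limma called 0 of 6 (4 at an unadjusted p, 3 by DESeq2, 0 by edgeR and limma-voom). Mcm10, which helps to open the double strand, had 927 and 346 in the mutants, against 1396, 1675 and 1521 in the wt libraries (log2 -1.43, SE 0.376, limma adjusted p = 0.0671). Gins2 had 555 and 269, against 736, 815 and 672 in wt (log2 -0.93, SE 0.287, limma adjusted p = 0.0917). Cdc45, the cofactor of the helicase, had a log2 fold change of -1.31 and Gins1 of -0.995. The 4 GINS subunits work as 1 complex. Of their transcripts Gins4 had the smallest decrease, and differences among the 4 were not tested. Gins4 had 832 and 825 in the mutants, against 914, 970.1 and 913 in the wt libraries, so both mutants lay just below wt and close to each other (log2 -0.17, limma adjusted p = 0.184). Gins3 had 210.4 and 86.1, against 215, 295 and 197 in wt, with mutant 1 inside the wt range (log2 -0.78).

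Of 8 genes for polymerase and primase subunits, limma called Prim2 lower and not the other 7, with 8 lower at an unadjusted p, 7 by DESeq2, 1 by edgeR and 1 by limma-voom. Prim2 (chromosome 1, 33453810 to 33669795, minus strand), the large subunit of primase, which makes the RNA primers, had 491 and 349 in the mutants, against 662, 719 and 677 in the wt libraries. No mutant value reached the wt range, with a log2 fold change of -0.72 (SE 0.153, limma adjusted p = 0.0405). Its partner, the catalytic subunit Prim1, had a value of -1.08. Pole2, an accessory subunit of the leading-strand polymerase epsilon, had 295 and 197, against 397, 443 and 394 in wt (log2 -0.77, SE 0.181, limma adjusted p = 0.0529). Its catalytic subunit Pole had a value of -1.24. Pold1, the catalytic subunit of polymerase delta, had 1653 and 774 in the mutants, against 2494, 2846 and 2426 in the wt libraries (log2 -1.19, SE 0.294, limma adjusted p = 0.0580). The other subunits of polymerase delta had unlike values, with -0.92 for Pold2 and -0.28 for Pold3, and Pola2 of polymerase alpha had a value of -0.59. Pold3 stood at 87.9% of the wt mean in mutant 1 and 77.4% in mutant 2.

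Limma called the sliding clamp and 1 subunit of its loader lower, 2 of 7 genes, with 4 lower at an unadjusted p, 4 by DESeq2, 2 by edgeR and 2 by limma-voom. All 7 had a negative log2 fold change. Pcna (chromosome 2, 132249162 to 132253314, minus strand), the ring that tethers polymerases to DNA, had 8398 and 5045 in the mutants, against 13351, 14889 and 13074 in the wt libraries. This was 6722 ± 2371 against 13772 ± 978 (SD, n = 2 mutant and 3 wt libraries), a log2 fold change of -1.08 (SE 0.205, limma adjusted p = 0.0305). Per kilobase of gene length as the authors give it, Pcna had the highest level of the 49, with mean normalized counts of 2801 per kilobase in the mutants and 5738 in wt. Its pseudogene Pcna-ps2, which could share reads with it, had 55.8 and 37.2 in the mutants, against 94.5, 115 and 98.3 in the wt libraries. Rfc1 (chromosome 5, 65261850 to 65335670, minus strand), the large subunit of the clamp loader, had 2775 and 2265, against 3363, 3509 and 3457 in wt (log2 -0.46, SE 0.0978, limma adjusted p = 0.0421). The 4 small subunits had log2 fold changes of -0.17 (Rfc2), -0.65 (Rfc3), -0.74 (Rfc4) and -0.48 (Rfc5), and Rfc2 and Rfc5 in mutant 1 stood at 97.9% and 96.2% of the wt mean. Dscc1, part of an alternative loader, had -0.87 and the lowest level per kilobase of the 49, at 20.5 in the mutants and 34.2 in wt.

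**Figure D4:**
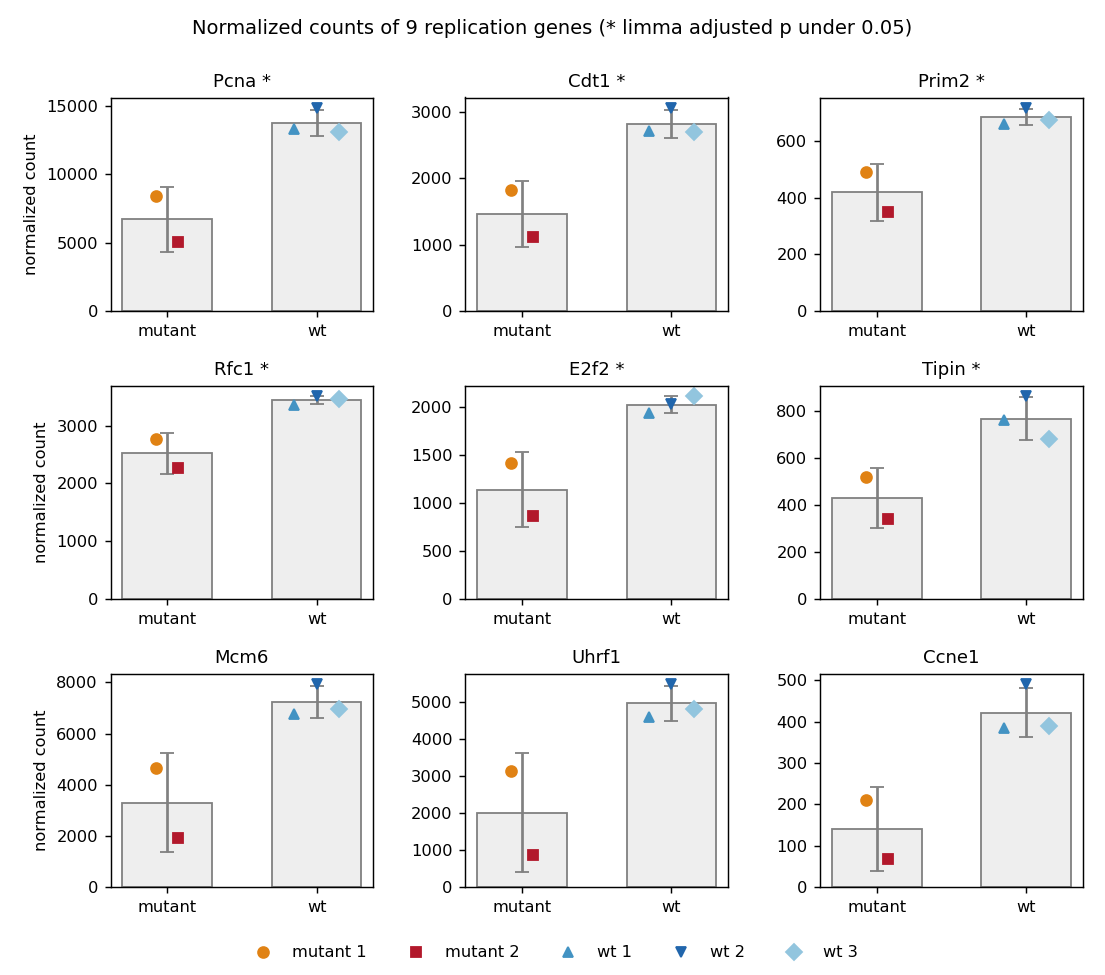
Normalized counts of the 6 called genes (asterisks) and of Mcm6, Uhrf1 and Ccne1, with mutant left of wt and 1 symbol per library. Bars are group means and whiskers the SD (n = 2 mutant and 3 wt libraries), and no mutant library reaches a wt library in any of the 9 panels.

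For proteins that coat single-stranded DNA and join Okazaki fragments, limma called 0 of 5 (5 lower at an unadjusted p, 3 by DESeq2, 0 by edgeR and limma-voom). Rpa1, the large subunit of the coat, had 3009 and 1862 in the mutants, against 3558, 4141 and 3481 in the wt libraries (log2 -0.65, SE 0.200, limma adjusted p = 0.0915). The other coat subunits had values of -0.91 (Rpa2) and -0.38 (Rpa3). Fen1, the flap nuclease, had 142 and 62.7, against 182, 217 and 194 in wt (log2 -1.05, SE 0.326, limma adjusted p = 0.0938). The DNA ligase gene Lig1 had a value of -1.03. In all 5 the mutants lay below every wt library.

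Of the 5 cyclin E and E2F genes, limma called E2f2 lower, with 5 lower at an unadjusted p, 4 by DESeq2, 0 by edgeR and 2 by limma-voom. E2f2 (chromosome 4, 136172394 to 136196057, plus strand), an activator of S phase genes, had 1419 and 869 in the mutants, against 1937, 2033 and 2121 in the wt libraries (log2 -0.87, SE 0.195, limma adjusted p = 0.0471). It was not called by edgeR (adjusted p = 0.0560), with a robust prior (0.0564) or with scaling by library totals (0.0525). Ccne1, a cyclin E that activates Cdk2, had the lowest fold change of the 49. It had 211 and 68.0 in the mutants, against 385, 491 and 390.2 in the wt libraries (log2 -1.78, SE 0.436, limma adjusted p = 0.0566), and was called by limma-voom (adjusted p = 0.0492). Mutant 1 stood at 50.1% and mutant 2 at 16.1% of the wt mean. Ccne2, the other cyclin E, had a value of -1.33. E2f1, the highest of the 5 per kilobase in every library, had 1672 and 1075, against 1874, 2196 and 1929.8 in wt (log2 -0.57, SE 0.186, limma adjusted p = 0.1003). The repressor E2f8 had a value of -1.05.

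Genes that copy chromatin and DNA methylation behind the fork had values from -1.57 to -0.75, and limma called 0 of 4 (4 lower at an unadjusted p, 3 by DESeq2, 0 by edgeR and limma-voom). Chaf1b, a subunit of the chromatin assembly factor that places new histones, had 689.9 and 327 in the mutants, against 957, 1087 and 916 in the wt libraries (log2 -1.05, SE 0.292, limma adjusted p = 0.0757). Its partner Chaf1a had a value of -1.12. Dnmt1, the maintenance DNA methyltransferase, had 7877 and 4486, against 9601, 10638 and 9794 in wt (log2 -0.75, SE 0.221, limma adjusted p = 0.0838). Uhrf1, which guides Dnmt1 to newly copied DNA, had a value of -1.57 and the largest log2 gap of the 49 between the mutants, with 3145 in mutant 1 and 880.3 in mutant 2, against 4593, 5479 and 4800.4 in wt.

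At the fork itself, limma called Tipin lower, 1 of 3 genes, with 3 lower at an unadjusted p, 2 by DESeq2, 0 by edgeR and 1 by limma-voom. Tipin (chromosome 9, 64281581 to 64305424, plus strand), the partner of Timeless in fork stability, had 519.6 and 341 in the mutants, against 760.2, 864 and 678 in the wt libraries (log2 -0.86, SE 0.195, limma adjusted p = 0.0489). It was not called by edgeR (adjusted p = 0.0552), with TMM scaling (0.0508), with scaling by library totals (0.0540) or with a minimum of 10 in all 5 libraries (0.0513). Clspn, the adaptor of the replication checkpoint, had 1033 and 385 in the mutants, against 1375, 1588 and 1459.9 in the wt libraries (log2 -1.22, SE 0.374, limma adjusted p = 0.0908). Wdhd1, which links the helicase to polymerase alpha, had a value of -0.97.

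By level per kilobase, Pcna, Mcm6 and Dnmt1 were the 3 highest of the 49 in mutant 1 and in each wt library, whereas in mutant 2 Gins4 stood 2nd, Dnmt1 3rd and Mcm6 4th. Mcm6 averaged 707 per kilobase in the mutants and 1547 in wt, and Dnmt1 838 in the mutants and 1357 in wt. Gins4 stood 7th in mutant 1 and 2nd in mutant 2, against 10th or 11th in the wt libraries. Within wt, wt 2 was the highest library in 45 of the 49 genes, against 42.3% of all genes tested, and the median range of a gene over the wt libraries was 0.24 log2.

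The same pathways hold genes that are not among the 49. Of 35 other replication factors, limma called 0 (25 lower and 0 higher at an unadjusted p, 9 lower by DESeq2, 1 by limma-voom, 0 by edgeR), with a median log2 fold change of -0.51. Those of lowest adjusted p were Timeless (-1.47, limma adjusted p = 0.0519), the origin-timing factor Rif1 (-0.77) and the nuclease Dna2 (-0.49). Of 26 other G1/S regulators, limma called 4 lower and 0 higher. At an unadjusted p 15 were lower and 3 higher, with 7 and 3 by DESeq2, 3 and 1 by edgeR, and 4 and 1 by limma-voom. Those higher at an unadjusted p were Cdkn1b (log2 0.52), Rb1 (0.30) and Tfdp2 (0.27), each with both mutants above every wt library. The median of these 26 was -0.51. Ccnd2, a D-type cyclin that acts in G1 ahead of cyclin E, had 901 and 354 in the mutants, against 4012, 4812 and 4215 in the wt libraries, a 7.64-fold difference (log2 -2.93, SE 0.357, limma adjusted p = 0.00813). The other D-type cyclin called, Ccnd3, fell by 0.49 on the log2 scale, and the kinase Cdk6 (-0.76) and the transcription factor Myc (-0.40) fell as well. Without wt 1 and without wt 3, limma called none of these 4 (adjusted p of 0.0550 to 0.162), and without wt 2 it called Ccnd2 and Ccnd3. In Ccnd3 and Myc the mutants differed little, at 72.1% and 70.2% of the wt mean for Ccnd3 and 76.2% and 74.8% for Myc. The D-type cyclin Ccnd1, which was not called, had a log2 fold change of -1.73 (limma adjusted p = 0.0699).

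Of 11 genes of dNTP supply, limma called Dck lower and not the other 10 (9 lower at an unadjusted p, 4 by DESeq2, 1 by edgeR and 1 by limma-voom), with a median of -1.14. Dck, the deoxycytidine kinase of salvage, had 2695 and 1632 in the mutants, against 7565, 8197 and 7507 in the wt libraries (log2 -1.88, SE 0.198, limma adjusted p = 0.00452), and was called with any 1 wt library left out. Dctd (-1.27) and Dut (-1.17) came next by adjusted p. Of 20 mitotic genes, limma, edgeR and limma-voom called 0, and DESeq2 called 2 lower, near its share of all genes (10.1%). At an unadjusted p 13 were lower, against 17.7% of all genes. Their median was -0.76, with -0.20 in mutant 1 and -1.29 in mutant 2, and Plk1 (-0.998), Ube2c (-0.77) and Kif20a (-0.83) had the lowest adjusted p. Both mutants lay below all 3 wt libraries in 18 of these 20 genes, against 26.9% of all genes tested. The proliferation marker Mki67, named after its values were seen, was not among the 18. It had 15384 in mutant 1 and 6795 in mutant 2, against 15365 to 16433 in wt, so that only mutant 2 lay outside the wt range. The differences between these lists and the 49 genes were not tested.

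**Figure D5:**
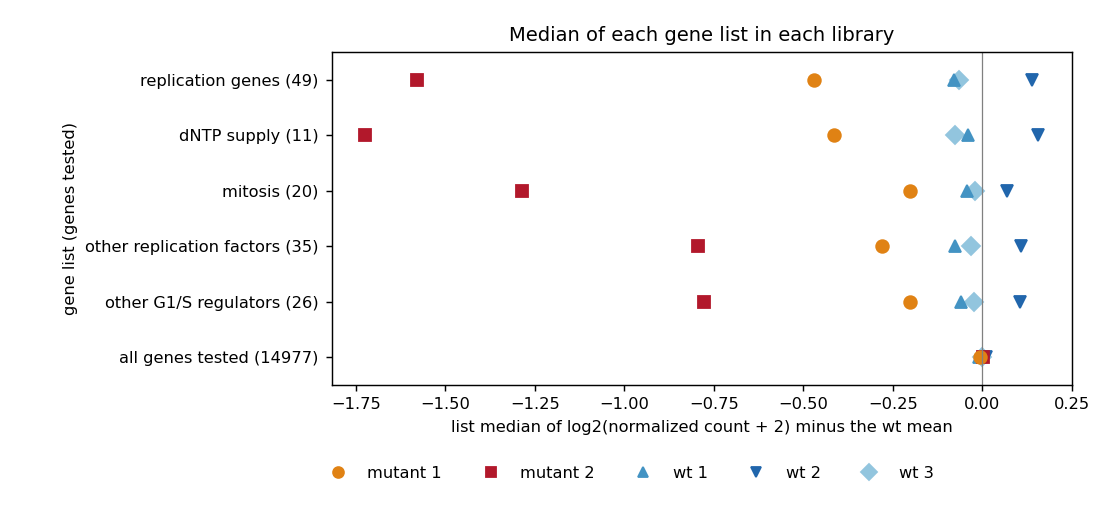
Median of log2(normalized count + 2) minus the wt mean for each gene list (rows, with the number of genes tested) in each library (symbols). The replication genes stand at -0.47 and -1.58 in mutants 1 and 2, the mitotic genes at -0.20 and -1.29, and all genes tested at -0.0066 and 0.0035.

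The share of reads on Rn18s (ribosomal RNA) was 5.28% in mutant 1 and 4.04% in mutant 2, against 0.599% to 1.64% in the wt libraries. Of the 8 macrophage markers, 2 were called higher and 1 lower. B cell markers summed to 195 and 225 CPM, against 93.5 to 117 in wt, and T and NK cell markers to 23.1 and 42.5, against 9.18 to 12.0, with 1 gene called higher in each list. Markers of neutrophils (21.6 and 26.7, against 20.1 to 28.7) and dendritic cells (5.30 and 8.61, against 7.37 to 9.36) overlapped with wt in at least 1 mutant, as did those of mast cells and eosinophils (2.74 and 2.71, against 2.53 to 3.38). Markers of erythroid cells and platelets summed to 185 and 154 CPM in the mutants, against 112 to 153 CPM in wt, with Pf4 at 98.9% of the sum and 1 gene, Ppbp, called higher (log2 1.43, limma adjusted p = 0.0385). Those of mesothelium and fibroblasts summed to 0.947 and 0.953 CPM, against 1.69 to 2.56 CPM in wt, with 1 gene called lower. The part of ribosomal RNA, of other cell types and of age in the values of the replication genes was not tested.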

How the data were processed

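STAR, featureCounts of Subread, DESeq 1.6.1 and the build mm10 are named, per the submitters' processing notes; the annotation and use of strand were not found in the notes or labels. In the deposited signal (normalized counts), 100% of values were whole multiples of 1 read within 0.001 reads, with 1 factor for each library, so reads were recovered from them. The authors' deposited log2 fold change is wt over mutant, and their adjusted p-value is used as given; their mean was above 0 in all 3266 rows with 0 reads here, so that mean also covers libraries not analysed here. A second deposited table, of genes past the authors' threshold, was not used. The gene length that the authors deposited was used for levels per kilobase.

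The test was limma 3.58.1 (R 4.3.3) on log2(normalized count + 2), with the prior spread following the mean level, for genes that reached 10 in at least 2 libraries, two-sided, Benjamini-Hochberg adjusted over all 14977 genes, and genes under 0.05 were called. Fold changes are on this scale and understate changes of low genes. EdgeR 4.0.16 and DESeq2 1.42.0 were run on recovered reads. The step was tested on simulated data with the same spread in both groups. This does not cover mutants that differ more from each other than the wt libraries do. Replicates differed beyond sampling noise (mean chi-square per gene 14.3 to 61.6). Members and lists were chosen with earlier results of these data known. In each role, the 2 genes of lowest adjusted p and the one of highest mean normalized count over the 5 libraries are given per library; of other lists, the called genes or the 3 of lowest adjusted p. Gins3, Gins4, Pold3, Uhrf1 and Mki67 were named in detail after their values were seen, and Ccnd1, Cdkn1b, Rb1 and Tfdp2 were also named then. Of the 49 genes, 21 overlap an annotated gene on the opposite strand and 14 one on the same strand (GENCODE M21), whose reads may not be separated. Only chromosomes 1 to 19 are in the table used here.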

Additional observations from a re-analysis of the deposited data

How the results depend on the processing

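The direction of all 49 genes held under every alternative run (other scalings, pseudocounts of 1 and 8, other filters, a robust prior, edgeR, DESeq2, limma-voom, each library left out, a replicate block, and wt 3 as the lone wt library), and no value reversed. The count of genes called depended on the test and on the libraries. DESeq2 called 33 replication genes lower and 2429 of all genes. With 1 library left out, the count of replication genes ranged from 0 to 48, that of all genes from 202 to 4991, and the median log2 fold change of the 49 from -1.58 to -0.47. With the replicate number of the titles as a block, 0 replication genes (38 lower at an unadjusted p) and 81 of all genes were called; the labels do not say that the numbers pair libraries, and same-numbered libraries had deviations correlated at -0.23 and -0.36. With wt 3, nearest in age to the mutants, as the lone wt library, 0 (3 at an unadjusted p) and 24 were called, the spread then resting on the mutants alone, and the median was -0.93. Under the other alternatives, 4 to 7 replication genes were called. Of the genes named outside the 49, whose alternatives were chosen after seeing the data, 0 of Ccnd2, Ccnd3, Cdk6, Myc and Dck were called with the block (adjusted p of 0.0763 to 0.372) or with wt 3 alone. With 2 mutant libraries that differ, the size of a decrease is poorly bounded, and no difference between the mutants can be tested.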
